A study of Arabidopsis thaliana with 9 samples.

Results

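The flavonoid and anthocyanin pathway of Arabidopsis thaliana leaves is described here through 33 genes, taken by locus identifier from a list of its enzymes and regulators. All 33 were found among the 33302 features of the expression table. They comprise 4 enzymes of phenylpropanoid entry, 6 of the early flavonoid steps, 9 genes of the late anthocyanin steps, 3 flavonoid glycosyltransferases of the UGT78D family, and 11 regulators. RNA was sequenced from leaves of 21-day-old plants in the Columbia-0 background, in 2 K36M libraries and 2 WT libraries. K36M plants held an added HTR5 gene (AT4G40040, histone H3) encoding methionine in place of lysine, and WT plants an added HTR5 gene without that change. Both groups therefore carried a transgene beside their own H3 genes. Libraries of a group are duplicate biological replicates by their labels, which do not say how many plants each one pooled. The sources used here do not give the transgene's promoter, its zygosity in the RNA samples or the number of independent lines. H3K36me3 chromatin immunoprecipitation samples of the same series were not analysed here.

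Flavonoids are made from phenylalanine. The entry enzymes convert it to coumaroyl-CoA, and the early enzymes build the flavonoid skeleton that serves flavonols and anthocyanins alike. The late enzymes turn dihydroflavonols into anthocyanidins, which are then glycosylated, acylated and carried into the vacuole as the red and purple pigments of stressed leaves. In Arabidopsis, the early genes are known targets of the flavonol regulators MYB11, MYB12 and MYB111, and the late genes of complexes of a MYB, a bHLH and the WD40 protein TTG1.

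Values are the authors' FPKM, fragments scaled to gene length and library size, so levels can be compared between genes. Library depth is unknown, and no counting interval can be given. WT replicate 1 stood apart from the other libraries, with Pearson r of log2(FPKM + 1) across 17738 genes, which are not independent replicates, of 0.821 to 0.834 to the remaining libraries. Among those 3, r was 0.937 to 0.950. Leaf markers were abundant in all 4 libraries, with RBCS1A, a small subunit gene of rubisco, at 25788 and 30192 FPKM in K36M, and at 21083 and 49053 FPKM in WT. Of 5 seed and seed coat markers, BAN was listed at 0 throughout and none exceeded 0.308 FPKM, with summed levels of 0.427 to 0.848 FPKM in K36M and 0.171 to 0.718 FPKM in WT. The petal and stamen markers AP3 and PI both lay above both WT values in both K36M libraries, as did 12.1% of all features tested below. Their summed levels were 5.60 and 9.30 FPKM in K36M, and 0 and 0.527 FPKM in WT. Neither was called in the comparison described below (limma adjusted p = 0.9999 for each). The part of floral tissue in the pathway's levels was not tested.

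The pathway as a whole was much lower in WT replicate 1 than in the other 3 libraries. In ratio, though for K36M replicate 1 not in absolute FPKM, the 2 K36M libraries lay nearer to WT replicate 2. The summed FPKM of the 33 genes was 2619 and 3222 in K36M replicates 1 and 2, and 1060 and 4263 in WT replicates 1 and 2. The libraries' FPKM totals differed too, and 1 feature, AT2G01021, took 9.01% and 19.6% of them in K36M, and 1.39% and 34.6% in WT. As a share of the total without that feature, the 33 genes held 0.309% and 0.296% in K36M, and 0.140% and 0.303% in WT. On that scale too WT replicate 1 was the lowest, by a smaller margin, and the part of library composition in the pathway's levels was not tested. WT replicate 1 was the lowest library for 30 of the 33 genes, against 34.7% of all features tested. WT replicate 2 was the highest for 18 of the 33, against 32.3% of all features. The median ratio to WT replicate 2 was 0.845 for K36M replicate 1 and 0.784 for K36M replicate 2, against 0.855 and 0.973 over all features. The median ratio of replicate 2 to replicate 1 was 1.12 in K36M over the 33 members and 3.74 in WT over the 32 members with a value above 0 in WT replicate 1, against 1.15 and 1.07 over all features tested. RNA from whole leaves cannot tell fewer cells of a type from less RNA per cell. The leaf, epidermal, trichome, seed and flower marker lists were each, in sum, lowest in WT replicate 1, as was the FPKM total. That total without AT2G01021 was 848446 and 1088300 in K36M, and 756076 and 1406620 in WT. Single markers differed, with RCA lowest in K36M replicate 1 and TRY in K36M replicate 2. Shares of the total were not computed for the marker lists. Leaf markers summed to 40459 and 48203 FPKM in K36M, and to 33450 and 86101 FPKM in WT. Epidermal markers are from a layer in which flavonoid genes are known to be active. Their summed level over 6 genes was 3135 to 3356 FPKM in K36M, and 1155 to 4570 FPKM in WT, with neither group beyond the other in any of the 6. LTP1, a lipid transfer protein gene, made up most of these sums, with 2414 and 2756 FPKM in K36M, and 842 and 3589 FPKM in WT. The 6 differed widely in the ratio of WT replicate 2 to WT replicate 1, which was 84.0 for PDF1, 1.49 for ATML1 and 0.860 for PDF2. The part of epidermal RNA in the pathway's levels was not tested.

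**Figure D1:**
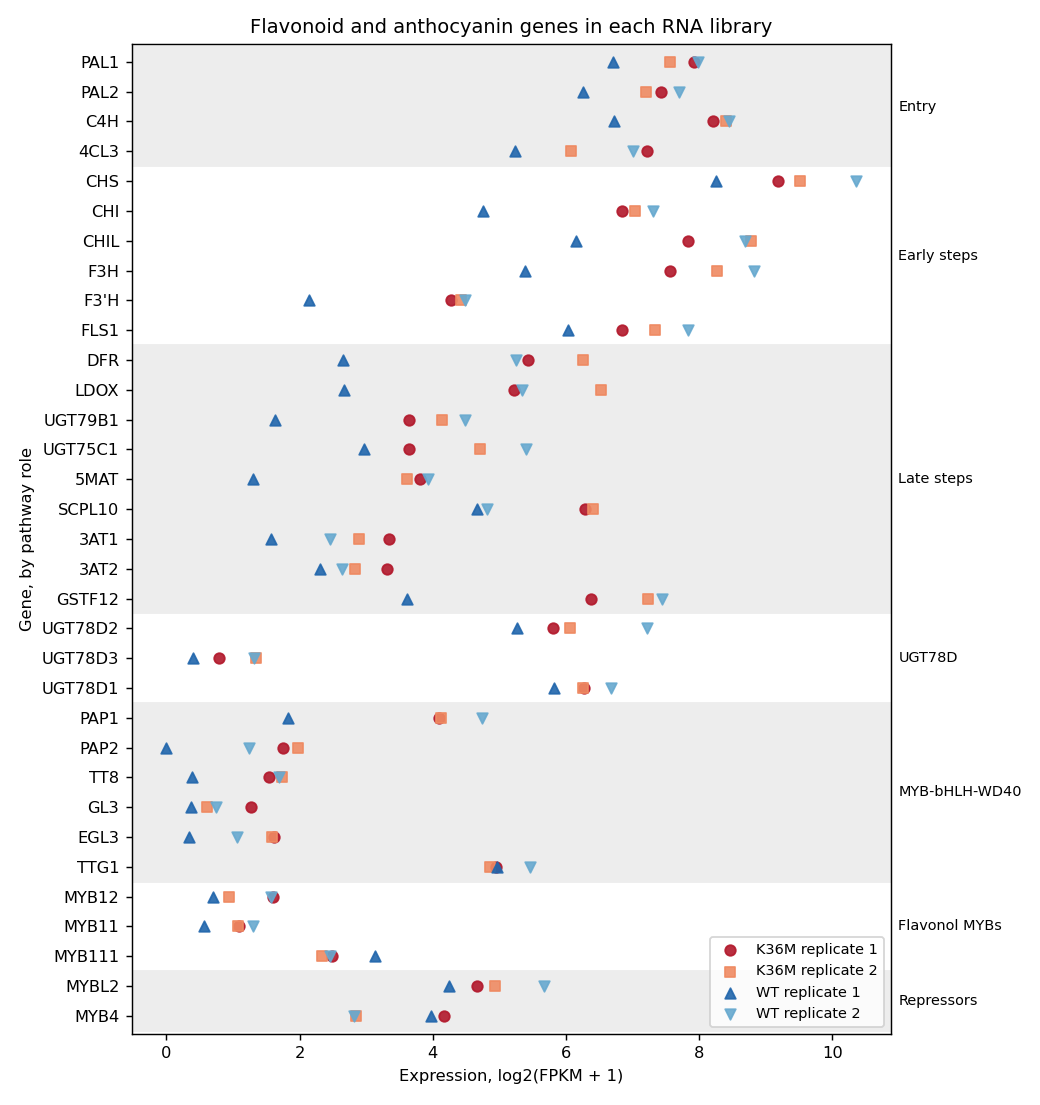
Expression of the 33 genes on a log2(FPKM + 1) axis, 1 row per gene grouped by role, with 1 marker for each of the 4 libraries (red K36M, blue WT). The dark blue triangle of WT replicate 1 is the lowest mark for 30 of the 33 genes, while for SCPL10 both WT marks lie close together and below both K36M marks.

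No member passed the comparison of K36M with WT. The test was limma on log2(FPKM + 1), two-sided, over the 17738 features averaging 1 FPKM or more, with Benjamini-Hochberg adjustment over all of them and a threshold of 0.05. It called 0.0282% of features higher and 0.0113% lower, 7 features or 0.0395% in all, and 0 of the 32 members that passed the filter (limma adjusted p = 0.9999 for each). At an unadjusted limma p under 0.05, 1 of the 32 was higher and 0 were lower, against 1.74% and 2.37% of all features. GL3, with a mean of 0.727 FPKM, did not pass the filter. In 6 members both K36M values lay above both WT values, against 12.1% of all features, and in 1 member both lay below, against 19.3%. The 6 were DFR, SCPL10, 3AT1, 3AT2, PAP2 and EGL3, and the 1 was TTG1. The median log2 fold change was 0.60 over the 32 members and -0.05 over all features. It was above 0 in 27 of the 32 members, against 45.6% of all features. Fold changes here are on the log2(FPKM + 1) scale, which understates those of low genes. Without WT replicate 1 the median over the members was -0.28, against -0.12 over all features, and 8 members were above 0. Between the replicate 1 libraries the members' median was 1.25, and between the replicate 2 libraries it was -0.25. Without WT replicate 2, which leaves WT replicate 1 alone to stand for WT, the members' median was 1.26, against -0.0026 over all features. In that fit 29 of the 32 members were above 0, against 8835 of the 17738 features.

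**Figure D2:**
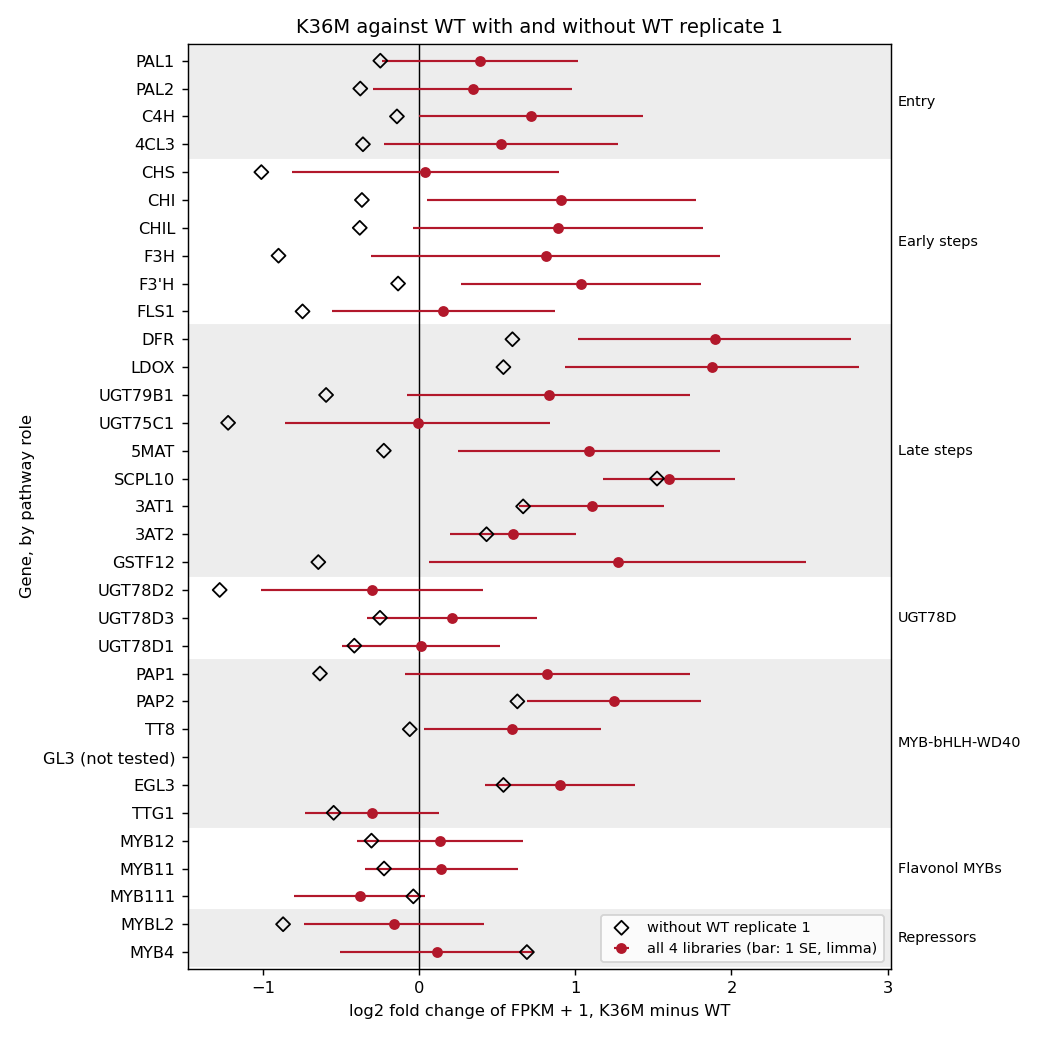
log2 fold change of FPKM + 1, K36M minus WT, for each tested member, with bars of 1 SE from limma (filled circles, all 4 libraries) and the value without WT replicate 1 (open diamonds). SCPL10 stays at 1.52 without that library, against 1.60 with it, while 19 of the 32 members turn from above 0 to below 0.

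The 4 entry enzymes were abundant in the leaves, and each was lowest in WT replicate 1. PAL1 (AT2G37040), one of the phenylalanine ammonia-lyases that open the pathway, had 241 and 187 FPKM in K36M, and 104 and 253 FPKM in WT. PAL2 (AT3G53260), its close relative, had 171 and 147 FPKM in K36M, and 75.3 and 206 FPKM in WT. C4H (AT2G30490), the cinnamate hydroxylase, had 294 and 337 FPKM in K36M, and 105 and 347 FPKM in WT. For each of these 3 the WT values lay on either side of both K36M values. 4CL3 (AT1G65060), the coumarate:CoA ligase linked to flavonoid synthesis, had 147 and 66.5 FPKM in K36M, and 36.6 and 127 FPKM in WT. It was the entry gene with the widest gap between the K36M libraries. The median log2 fold change of the 4 was 0.46, and WT replicate 2 exceeded WT replicate 1 by a median of 3.03 times.

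Among the early steps, chalcone synthase was the most abundant member of the whole pathway in all 4 libraries, and each of the 6 genes was lowest in WT replicate 1. CHS (AT5G13930), which makes the first flavonoid intermediate, had 581 and 727 FPKM in K36M, and 304 and 1311 FPKM in WT. Its K36M values lay between the WT values, and its log2 fold change was 0.04 ± 0.85 (SE; limma adjusted p = 0.9999). CHS made up 46.8% and 40.7% of the early genes' summed FPKM in K36M, and 59.8% and 50.8% in WT. CHI (AT3G55120), the chalcone isomerase, had 113 and 130 FPKM in K36M, and 25.9 and 157 FPKM in WT. CHIL (AT5G05270), an isomerase-like protein that enhances flavonoid production, had 227 and 439 FPKM in K36M, and 70.0 and 411 FPKM in WT. CHIL was the single early gene in which a K36M library held the highest value.

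The hydroxylases and the flavonol synthase had the same layout. F3H (AT3G51240), the flavanone hydroxylase that makes dihydroflavonols, had 187 and 308 FPKM in K36M, and 41.0 and 450 FPKM in WT, and the ratio between the WT libraries was the greatest of the early genes. F3'H (AT5G07990), the P450 that adds the second hydroxyl group of the B ring, had 18.3 and 20.5 FPKM in K36M, and 3.41 and 21.4 FPKM in WT. It was the lowest early gene in every library. FLS1 (AT5G08640), which draws dihydroflavonols into flavonols, had 114 and 161 FPKM in K36M, and 64.4 and 228 FPKM in WT. In CHI, F3H, F3'H and FLS1, as in CHS, both K36M values lay between the WT values. The log2 fold changes of the 6 early genes ran from 0.04 for CHS to 1.04 for F3'H, and all 6 were below 0 without WT replicate 1, from -1.01 to -0.14.

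Of the 6 members above both WT values in both K36M libraries, 4 were late genes. DFR (AT5G42800), the dihydroflavonol reductase that commits the pathway to anthocyanins, had 42.0 and 75.5 FPKM in K36M, and 5.29 and 36.9 FPKM in WT. Both K36M values exceeded both WT values, the nearest pair by 1.14 times. K36M minus WT was 1.89 ± 0.88 on the log2 scale (SE; limma adjusted p = 0.9999). LDOX (AT4G22880), the anthocyanidin synthase that follows, had 36.4 and 91.2 FPKM in K36M, and 5.34 and 39.4 FPKM in WT. Here the groups overlapped, since K36M replicate 1 was below WT replicate 2, and the log2 fold change was 1.88 ± 0.94 (SE; limma adjusted p = 0.9999). Without WT replicate 1 the log2 fold changes were 0.60 for DFR and 0.54 for LDOX. Without WT replicate 2 they were 3.19 and 3.21.

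SCPL10 (AT2G23000), a serine carboxypeptidase-like protein that attaches a sinapoyl group to anthocyanins, had the lowest unadjusted p of the members. It had 76.6 and 83.6 FPKM in K36M, and 24.3 and 27.2 FPKM in WT. The groups averaged 80.1 ± 4.92 FPKM in K36M and 25.8 ± 2.03 FPKM in WT (SD, n = 2 each), so the gap between them was wider than the spread within either. Its log2 fold change was 1.60 ± 0.42 (SE), with an unadjusted limma p of 0.0088 and an adjusted p of 0.9999 over all features. It stayed between 1.52 and 1.68 when each library was left out in turn. WT replicate 2 exceeded WT replicate 1 by 1.12 times in SCPL10, the smallest such excess among the members lowest in WT replicate 1. Some of the genes near it in the RefSeq gene order are related to it. SNG1, which makes sinapoylmalate, had 140 and 194 FPKM in K36M, and 125 and 159 FPKM in WT. SCPL9, the next gene on the other side, had 2.00 and 2.46 FPKM in K36M, and 3.70 and 1.08 FPKM in WT. SCPL13, beyond SNG1, had 4.02 and 6.66 FPKM in K36M, and 13.6 and 1.64 FPKM in WT. SNG1, SCPL9 and SCPL13 overlapped between the genotypes, and near-identical copies of this family can share reads, which was not examined.

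The acyltransferases that add coumaroyl groups to anthocyanins were low but lay above WT in both K36M libraries. 3AT1 (AT1G03940) had 9.13 and 6.45 FPKM in K36M, and 1.98 and 4.48 FPKM in WT, and K36M minus WT was 1.1 ± 0.46 on the log2 scale (SE; limma adjusted p = 0.9999). 3AT2 (AT1G03495) had 8.91 and 6.13 FPKM in K36M, and 3.93 and 5.23 FPKM in WT, and K36M minus WT was 0.60 ± 0.40 (SE; limma adjusted p = 0.9999). 5MAT (AT3G29590), the malonyltransferase, had 12.9 and 11.2 FPKM in K36M, and 1.46 and 14.2 FPKM in WT, so that its K36M values lay between the WT values.

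In the glycosyltransferases and the transport protein of the late steps, the K36M values lay between the WT values, as in most early genes. UGT79B1 (AT5G54060), which adds xylose to anthocyanins, had 11.5 and 16.5 FPKM in K36M, and 2.09 and 21.3 FPKM in WT. UGT75C1 (AT4G14090), the anthocyanin 5-O-glucosyltransferase, had 11.5 and 25.0 FPKM in K36M, and 6.84 and 41.2 FPKM in WT, and K36M minus WT was -0.01 ± 0.85 on the log2 scale (SE; limma adjusted p = 0.9999). It was the single late gene below 0, and this sign turned at a pseudocount of 0.1, after quantile normalization and after scaling the libraries to equal FPKM sums without AT2G01021 (0.01, 0.19 and 0.10). GSTF12 (AT5G17220), the glutathione transferase known as TT19 that carries anthocyanins towards the vacuole, had 81.7 and 149 FPKM in K36M, and 11.2 and 173 FPKM in WT. It was the most abundant late gene in every library but WT replicate 1, where SCPL10 was, and its 15.4-fold gap between the WT libraries was the widest of any member with values above 0. Over the 9 late genes the median log2 fold change was 1.1, and without WT replicate 1 it was 0.43, with 5 of the 9 above 0.

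Set against the early steps of the same library, the late steps were higher in K36M when averaged over genes, though not by medians. The mean log2(FPKM + 1) of the 9 late genes minus that of the 6 early genes was -2.53 and -2.61 in K36M, and -2.86 and -3.28 in WT. The group means were -2.57 ± 0.05 in K36M and -3.07 ± 0.30 in WT (SD, n = 2 each), a difference of 0.50 log2 units with no overlap and no test. On this scale WT replicate 1, where the pathway's sum was lowest, lay nearer to K36M. WT replicate 2, where the early genes were at their highest, lay farther. The difference was 0.33 between the replicate 1 libraries and 0.67 between the replicate 2 libraries, and stayed between 0.38 and 0.64 when each of the 15 genes was left out in turn. It was 0.00025 when medians replaced means within each step group, with -3.40 and -3.10 in K36M and -3.06 and -3.45 in WT. With UGT78D2, of the UGT78D family, counted as a late gene it was 0.35 and the groups did not overlap. With a pseudocount of 5 it was 0.30 and the groups overlapped. The late genes held 19.0% and 20.7% of the summed FPKM of early and late genes in K36M, and 10.9% and 12.4% in WT.

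**Figure D3:**
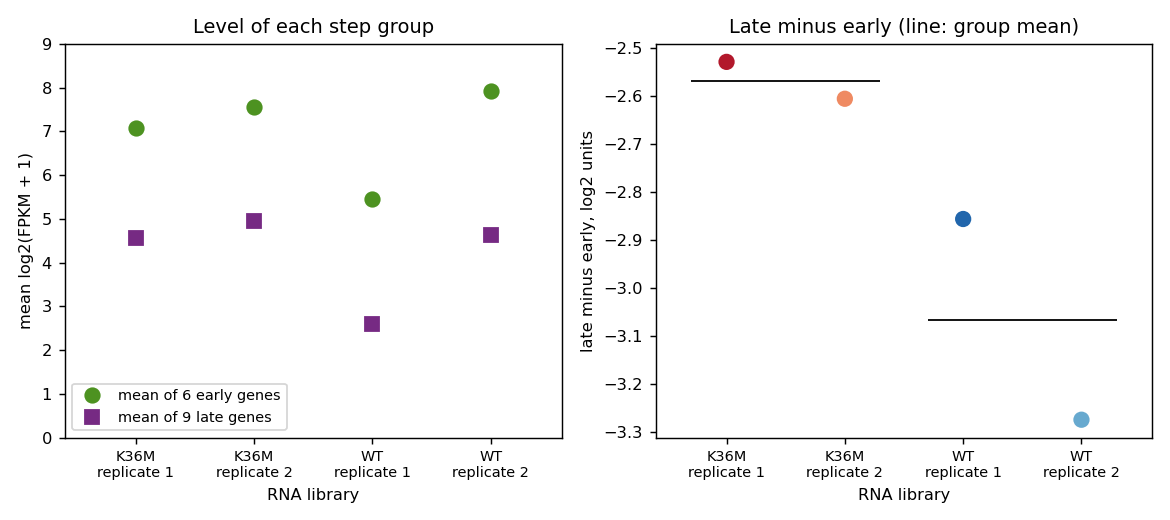
Left, mean log2(FPKM + 1) of the 6 early genes (circles) and the 9 late genes (squares) in each library; right, late minus early in each library, with a line at the mean of each genotype. Early and late levels are both lowest in WT replicate 1, and the difference is -2.53 and -2.61 in K36M, and -2.86 and -3.28 in WT.

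The shift of the late steps rested on part of the late genes, with DFR and LDOX the most regular. DFR stood at 7.23% and 10.4% of CHS in K36M, and at 1.74% and 2.82% in WT. LDOX stood at 6.26% and 12.5% of CHS in K36M, and at 1.75% and 3.01% in WT. The mean of these ratios was 3.87 times as high in K36M for DFR and 3.95 times for LDOX. Relative to CHS, 7 of the 9 late genes had both K36M ratios above both WT ratios, against 9.35% of all features tested. In 0 of the 9 both were below, against 3.36%. All 6 early and all 9 late genes were lowest in WT replicate 1, against 34.7% of all features. Shares among only the features with that layout were not computed. Relative to FLS1 6 of the 9 were above (8.61% of all features) and 0 below (6.72%), and 5 were above relative to F3H (2.15% of all features). Relative to CHI (2.27%), CHIL (2.09%) and F3'H (1.45%) 2 of the 9 were above, DFR and LDOX in each case. DFR and LDOX were thus above relative to each of the 6 early genes, and no other late gene was above against more than 3. DFR was 22.4% and 24.5% of F3H in K36M, and 12.9% and 8.21% in WT. It was 36.9% and 47.1% of FLS1, with which it competes for dihydroflavonols, in K36M, and 8.22% and 16.2% in WT.

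UGT75C1 was the single late gene with both K36M ratios below both WT ratios against any early gene. This held for 4 of the 6, and UGT75C1 was at 6.16% and 8.12% of F3H in K36M, and 16.7% and 9.16% in WT. For all features tested the share below was 4.53% relative to F3H, 22.5% to CHI, 15.1% to CHIL and 35.5% to F3'H, the 4 genes concerned. UGT75C1 was at 27.5% and 33.1% of DFR in K36M, and at 129% and 112% in WT. DFR was itself above both WT values in both K36M libraries. The share of all features below relative to DFR was not computed. The gene model of UGT75C1 overlaps a protein-coding gene and a long non-coding RNA gene in the RefSeq annotation. The sources used here do not say whether counting used strand.

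**Figure D4:**
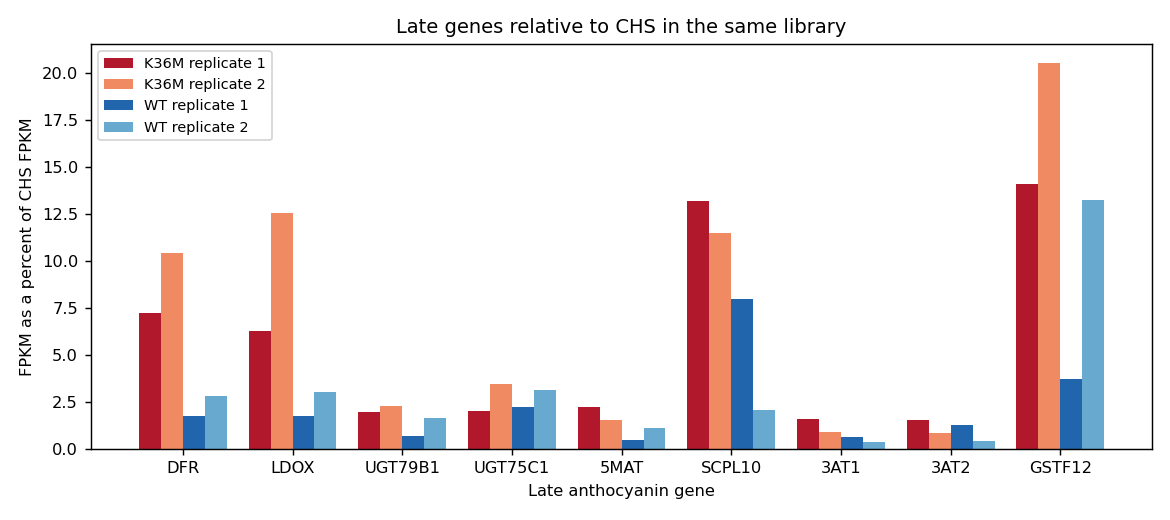
FPKM of the 9 late genes as a percent of CHS FPKM in the same library (bars from 0, 1 bar for each of the 4 libraries, red K36M and blue WT). The bars of DFR and LDOX reach 6.26% to 12.5% in K36M and 1.74% to 3.01% in WT, while the genotypes overlap for UGT75C1 and 3AT2.

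In the UGT78D glycosyltransferases the K36M values lay near or below those of WT replicate 2. UGT78D2 (AT5G17050), which adds glucose at the C3 position of flavonols and anthocyanidins, had 55.0 and 65.5 FPKM in K36M, and 37.3 and 147 FPKM in WT. Its log2 fold change was -0.30 ± 0.71 (SE; limma adjusted p = 0.9999), and -1.28 without WT replicate 1. UGT78D1 (AT1G30530), the flavonol rhamnosyltransferase, had 76.3 and 75.0 FPKM in K36M, and 55.6 and 101 FPKM in WT. UGT78D3 (AT5G17030), the flavonol arabinosyltransferase, was near the filter at 0.725 and 1.55 FPKM in K36M, and 0.312 and 1.50 FPKM in WT. The median log2 fold change of the 3 was 0.01.

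Among the MYB activators of anthocyanin genes, PAP1 was the more abundant MYB and PAP2 the one above WT in both K36M libraries. PAP1 (MYB75, AT1G56650) had 16.1 and 16.4 FPKM in K36M, and 2.56 and 25.8 FPKM in WT. The K36M libraries lay close together, at 16.2 ± 0.25 FPKM (SD, n = 2), and inside the WT range. PAP2 (MYB90, AT1G66390) had 2.37 and 2.92 FPKM in K36M, and was listed at 0 and at 1.35 FPKM in WT. Its log2 fold change was 1.25 ± 0.56 (SE; limma adjusted p = 0.9999), a value that depends on the pseudocount at this level, with 2.84 at a pseudocount of 0.1 and 0.44 at 5. MYB114, its neighbour and relative, was listed at 0 in every library, and MYB113 did not exceed 0.213 FPKM.

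The bHLH partners were all low. TT8 (AT4G09820), which the MYB complex is known to activate, had 1.90 and 2.31 FPKM in K36M, and 0.301 and 2.23 FPKM in WT. EGL3 (AT1G63650) had 2.08 and 1.99 FPKM in K36M, and 0.261 and 1.09 FPKM in WT, so that its groups did not overlap, and K36M minus WT was 0.90 ± 0.48 on the log2 scale (SE; limma adjusted p = 0.9999). GL3 (AT5G41315), best known from trichomes, had 1.41 and 0.530 FPKM in K36M, and 0.289 and 0.681 FPKM in WT, and its groups overlapped. Trichome markers overlapped too, with summed levels over 4 genes of 23.8 and 26.9 FPKM in K36M, and 20.9 and 34.6 FPKM in WT, GL1 being listed at 0 in WT replicate 1.

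TTG1 (AT5G24520), the WD40 scaffold shared by these complexes, was the single member below both WT values in both K36M libraries. It had 29.9 and 28.2 FPKM in K36M, and 30.1 and 42.9 FPKM in WT, and K36M replicate 1 and WT replicate 1 were nearly equal. Its log2 fold change was -0.30 ± 0.43 (SE; limma adjusted p = 0.9999). TTG1 made up 55.7% and 53.8% of the summed FPKM of the 6 MYB-bHLH-WD40 genes in K36M, and 89.8% and 57.9% in WT.

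The flavonol MYBs did not share a pattern across the libraries. MYB111 (AT5G49330) had 4.62 and 4.03 FPKM in K36M, and 7.79 and 4.46 FPKM in WT, and was the single member highest in WT replicate 1. MYB12 (AT2G47460) had 2.02 and 0.915 FPKM in K36M, and 0.616 and 1.97 FPKM in WT. MYB11 (AT3G62610) had 1.12 and 1.1 FPKM in K36M, and 0.485 and 1.47 FPKM in WT. MYB12 and MYB11 were, like the early genes, lowest in WT replicate 1, against 34.7% of all features, and MYB111 was not. Both lay near the filter, with no value above 2.02 FPKM. The log2 fold changes were 0.13, 0.14 and -0.38 for MYB12, MYB11 and MYB111, each with an SE of at least 0.42.

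The repressors differed from each other. MYBL2 (AT1G71030), an R3 MYB that inhibits the anthocyanin complex, had 24.3 and 29.5 FPKM in K36M, and 18.0 and 49.9 FPKM in WT. PAP1 stood at 66.2% and 55.6% of MYBL2 in K36M, and at 14.2% and 51.8% in WT. The replicate 2 libraries of the genotypes were close in this ratio. The share of all features for ratios to MYBL2 was not computed. MYB4 (AT4G38620), which represses C4H, had 17.0 and 6.22 FPKM in K36M, and 14.7 and 6.07 FPKM in WT. It was the single member lowest in WT replicate 2. Its log2 fold change was 0.11 ± 0.62 (SE; limma adjusted p = 0.9999).

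The other genes of the pathway gave no call either. Of 14 further flavonoid genes 8 were tested and 0 were called (limma, 0 at an unadjusted p under 0.05), with a median log2 fold change of 0.20 against -0.05 over all features. Of the 8 tested, 2 lay above both WT values, against 12.1% of all features. These 2 were OMT1, a methyltransferase of flavonols and lignin precursors, and PAL4. OMT1 had 143 and 170 FPKM in K36M, and 59.2 and 116 FPKM in WT. PAL4 had 7.45 and 6.87 FPKM in K36M, and 2.41 and 6.76 FPKM in WT, and PAL3 had 8.45 and 9.53 FPKM in K36M, and 8.95 and 18.3 FPKM in WT.

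Of 16 further regulators 13 were tested and 0 were called (limma, 0 at an unadjusted p under 0.05), with a median log2 fold change of 0.56 against -0.05 over all features. Of the 13 tested, 5 lay above both WT values, against 12.1% of all features. They were MYC1, the MYB repressor MYB32, HYH and COP1 of light signalling, and the SBP-box factor SPL9. MYC1, a bHLH of the same clade as GL3, was 1 of the 5, with 3.23 and 4.74 FPKM in K36M, and 1.60 and 1.81 FPKM in WT. LBD39, a nitrogen-responsive repressor of anthocyanin genes, had the greatest fold change of the list, with 78.9 and 117 FPKM in K36M, and 10.5 and 102 FPKM in WT. CPC, an R3 MYB, had 3.96 and 6.92 FPKM in K36M, and 1.55 and 4.64 FPKM in WT. LBD39 and CPC overlapped between the genotypes.

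Of 11 lignin and sinapate genes, which share the entry enzymes with flavonoids, all 11 were tested and 0 were called (limma, 0 at an unadjusted p under 0.05). Their median log2 fold change was 0.09, against -0.05 over all features. Both K36M values lay above both WT values in 1 of the 11 (12.1% of all features) and below in 1 (19.3%), and WT replicate 1 was the lowest library for 8 (34.7%). UGT84A2, the sinapate glucosyltransferase, was the 1 below, with 32.0 and 27.7 FPKM in K36M, and 36.2 and 55.9 FPKM in WT. REF1, an aldehyde dehydrogenase of sinapate synthesis, had 42.2 and 44.2 FPKM in K36M, and 138 and 39.5 FPKM in WT, and was highest in WT replicate 1. CAD4, a cinnamyl alcohol dehydrogenase, had 165 and 215 FPKM in K36M, and 71.1 and 224 FPKM in WT.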

How the data were processed

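Leaf RNA of 4 libraries was analysed, 2 K36M and 2 WT. The authors deposited FPKM values for 33302 features, and the program that computed them, its counting rules and its use of strand are absent from the sources used here. The submitters' processing notes name Bowtie2, bedtools and the TAIR10 build without saying which data each served. The 5 chromatin immunoprecipitation samples were not analysed here.

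Members were matched by locus identifier. RefSeq TAIR10.1 gave names and gene order for 33 of 33, and no coordinates are printed because the builds' names differ. FPKM was taken as log2(FPKM + 1), features averaging under 1 FPKM were left out, and limma 3.58.1 in R 4.3.3 (trended moderation) was fitted over 17738 features, with Benjamini-Hochberg adjustment at 0.05. Summaries used Python 3.11.15, pandas 2.3.3 and matplotlib 3.10.9. The fit was also run on simulated data, in which no library stood apart as WT replicate 1 does here. The late to early comparison is a difference of mean log2 values, and ratios to single early genes are of FPKM. Alternatives changed the pseudocount (0.1, 5), filter, scaling, span trend, moderation, replicate block and libraries. All members are named, and of the other lists the up to 3 tested genes with the greatest absolute fold change, with the markers; others, such as the neighbours of SCPL10 and PAP2, were named after their values were seen. Members and lists were chosen with earlier results of these data known. The labels call the replicates biological and say nothing further of the plants behind them, so p-values measure the spread between these libraries.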

Additional observations from a re-analysis of the deposited data

How the results depend on the processing

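Left-out libraries moved the members most. As each library was left out in turn, the features called numbered 0 to 702 and the members called 0 to 3. The features called were 13 without WT replicate 1, 702 without WT replicate 2, and 0 without either K36M replicate, where 216 and 151 had an unadjusted limma p under 0.05. The difference between late and early steps was 0.29 to 0.71. The log2 fold change changed sign for the following members, each given as its lowest value, without WT replicate 1, and its highest, without WT replicate 2: PAL1 -0.25 and 1.03, PAL2 -0.38 and 1.06, C4H -0.14 and 1.58, 4CL3 -0.36 and 1.41, CHS -1.01 and 1.09, CHI -0.37 and 2.19, CHIL -0.38 and 2.16, F3H -0.90 and 2.52, F3'H -0.14 and 2.21, FLS1 -0.75 and 1.06, UGT79B1 -0.60 and 2.26, UGT75C1 -1.23 and 1.2, 5MAT -0.23 and 2.40, GSTF12 -0.65 and 3.19, UGT78D2 -1.28 and 0.67, UGT78D3 -0.25 and 0.68, UGT78D1 -0.42 and 0.44, PAP1 -0.64 and 2.28, TT8 -0.061 and 1.25, MYB12 -0.31 and 0.57, MYB11 -0.23 and 0.51, MYBL2 -0.87 and 0.55. MYB4 was lowest without K36M replicate 1 and highest without K36M replicate 2, at -0.55 and 0.77. DFR, LDOX, SCPL10, 3AT1, 3AT2, PAP2 and EGL3 stayed above 0 without each library in turn, and TTG1 and MYB111 below 0. Where 1 library stands for a genotype, it is assumed to vary like the others. The cause of these changes was not tested.

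With the replicate number as a block, 0 features were called, against 7 without it, and 794 had an unadjusted limma p under 0.05. The replicate block, which in this balanced design cannot alter a fold change, called 0 of the 32 members. The labels share only the numbers: across 17738 genes the deviations of same-numbered libraries correlated at 0.13, and 2 pairs are too few to treat them as paired. The block together with removal of a gene span trend called 10. A pseudocount of 5 and no filter each called 0 features, with 673 and 1175 at an unadjusted limma p under 0.05. The cause was not tested. Medians over genes in place of means brought the late minus early difference to 0.00025. Near-zero fold changes turned sign: CHS -0.0040 and UGT78D1 -0.0047 with the span trend removed, with or without the block. UGT75C1 was 0.013 at a pseudocount of 0.1, 0.10 with equal FPKM sums without AT2G01021 and 0.19 after quantile normalization, which also gave UGT78D3 -0.024, MYB12 -0.026 and MYB11 -0.059. In all 11 alternatives that kept every library, 0 members were called. With 2 libraries a group and unknown depth, GL3, below the filter, was tested only without it.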

Other observations

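Of the 33 members, 8 overlap another annotated gene in RefSeq TAIR10.1, among them CHS, F3H, SCPL10, GSTF12 and UGT75C1, and reads of overlapping genes cannot be told apart if counting ignored strand, which the sources used here do not state. DFR and LDOX overlap none.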
